A study of Homo sapiens with 9 samples.

Results

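Type I interferon response genes are a set of 40 human genes, listed by symbol, whose transcripts are known to be induced by interferon alpha and beta. All 40 had a row in both tables analysed here, out of 59563 rows that name a gene. They were measured by poly(A) RNA sequencing in MOLM13, an established human acute myeloid leukaemia line that carries a KMT2A fusion and an internal tandem duplication of FLT3. The cells were kept for 72 h with the solvent DMSO, with 1 µM iberdomide (CC-220) or with 50 nM mezigdomide (CC-92480; one label field spells this code CC-92840), with 3 libraries in each of 3 groups. The drugs act through cereblon, a substrate-binding subunit of a ubiquitin ligase, and lead to the degradation of the transcription factors IKZF1 and IKZF3. No library was labelled as treated with interferon. Whether the 3 libraries of each group stem from separate cultures is not labelled, so the p-values cover the spread among these libraries alone, and that spread may be technical.

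Interferon alpha and beta bind the receptor chains IFNAR1 and IFNAR2, whose kinases JAK1 and TYK2 phosphorylate STAT proteins, among them STAT2. STAT2 joins IRF9 in a complex called ISGF3, which binds the interferon-stimulated response element (ISRE) near the start sites of target genes. The products act against viruses at different steps: OAS enzymes sense double-stranded RNA and switch on RNase L, IFIT proteins bind foreign RNA ends, IFITM proteins sit in membranes and hinder viral entry, and ISG15 is a ubiquitin-like tag. In myeloid cells many of these genes keep a low level without added interferon.

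The authors' deposited tables hold, for each gene, 1 mean normalised count over the 9 libraries (reads divided by a size factor for each library's depth), a log2 fold change of drug over DMSO, its standard error (SE) and a p-value adjusted by Benjamini-Hochberg over the whole table. They hold no value per library, so values by sample and overlap between libraries cannot be shown. These are bulk samples, in which fewer cells that use a gene and less RNA per cell cannot be told apart. A gene is called higher or lower at an adjusted p under 0.05 in the authors' Wald test. The log2 fold changes are shrunk towards 0, most in low genes, so that changes of low genes are understated. To show levels, the mean was split into a level for each group with both fold changes. These implied levels are in normalised counts, approximate, and without an error of their own. The depth of the 9 libraries was about 20900000 to 25300000 counted reads. All 8 myeloid markers of the check of the cell type had a mean of at least 579.7 normalised counts (ITGAM) in the authors' deposited table. Of 16 markers of other cell types 12 had a mean under 3 normalised counts, among them the T cell gene CD3E (0.104), the erythroid gene HBB (0) and the plasmacytoid dendritic cell genes CLEC4C (2.47) and LILRA4 (2.38). Those above it included KRT8 (45.1), TCF4 (137) and the collagen gene COL1A1 (100.9), of which COL1A1 was called, with log2 fold changes of 1.41 under iberdomide and 1.49 under mezigdomide in the authors' deposited table. The fibroblast genes COL1A2 and DCN stood at 1.31 and 0 normalised counts. Of the 8 myeloid markers, LYZ (1.39 and 1.51), CSF1R (1.34 and 1.54), MPO (0.91 and 1.11) and CD33 (0.24 and 0.19) were called higher under both drugs, as log2 fold changes under iberdomide and mezigdomide in the authors' deposited table. CEBPA (0.26, adjusted p = 0.0433, and 0.22, adjusted p = 0.0893) was called under iberdomide. ITGAM (-0.32 and 0.045), SPI1 (0.026 and -0.00064) and FLT3 (-0.028 and 0.085) were called under neither drug in the authors' deposited table. The part of a shift in cell state in the results was not tested.

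Of the 39 members above the filter on low counts under iberdomide, 13 (33.3%) were called by the authors' deposited table, where 14.1% of all 19497 tested genes were called. Of these 13, 10 were higher (7.3% of all tested genes were) and 3 were lower (6.77% of all tested genes were). Under mezigdomide 21 of 40 members (52.5%) were called by the authors' deposited table, beside 21.2% of 20819 tested genes. Here 16 members were higher (10.4% of all tested genes) and 5 lower (10.7% of all tested genes). The median log2 fold change of the members was 0.10 under iberdomide and 0.20 under mezigdomide, and that of all tested genes was -0.0095 and -0.0070. Both comparisons share the 3 DMSO libraries, so the calls under one drug are not independent of those under the other. The members were chosen with earlier results of these data known, so these shares are no independent test of the set.

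Many members were low. Their mean ran from 2.09 (CXCL10) to 2870 (BST2) normalised counts, with a median of 132.5, and 17 of the 40 lay under 100. Among the 23 members with a mean of at least 100, 13 (56.5%) were called under iberdomide and 16 (69.6%) under mezigdomide by the authors' deposited table. Of all 10919 genes at that level 19.3% and 30.9% were called. Among the lower members, 0 of 16 were called under iberdomide by the authors' Wald test (5 had an unadjusted p under 0.05) and 5 of 17 under mezigdomide. Of all genes with a mean under 100, 7.47% of 8578 were called under iberdomide and 10.4% of 9900 under mezigdomide.

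**Figure D1:**
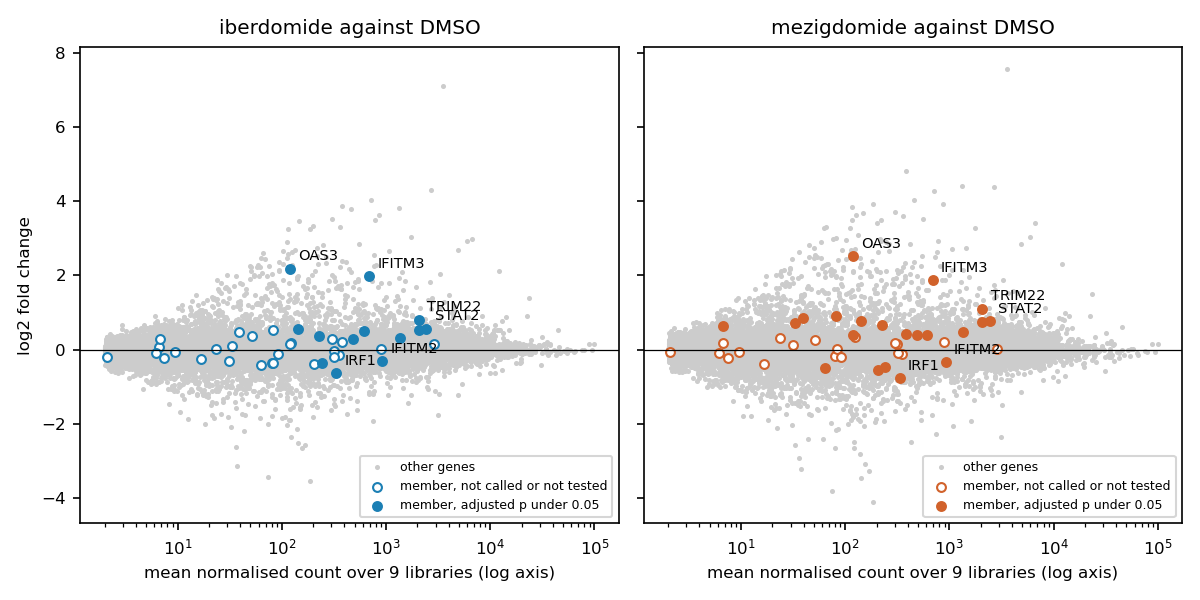
Each point is a gene, with its mean normalised count over the 9 libraries on a log axis and its log2 fold change over DMSO (left iberdomide, right mezigdomide). Filled coloured points are members called at an adjusted p under 0.05, open ones are members not called or not tested, and grey points are other genes. OAS3 and IFITM3 stand well above the remaining members under both drugs.

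The members did not move as one. The 4 OAS genes, which encode the oligoadenylate synthetases, had 1 member higher under iberdomide and 3 higher under mezigdomide, with 0 lower in either by the authors' Wald test. Their median log2 fold change was 0.28 and 0.79. Beside the counts of this family and of those that follow, 7.3% of all tested genes were higher and 6.77% lower under iberdomide. Under mezigdomide 10.4% of all tested genes were higher and 10.7% lower. Whether the families differ in their share of calls was not tested. OAS3 (chromosome 12, 112938352 to 112973249, GRCh38, GENCODE 29), the largest synthetase and the one with most activity on long double-stranded RNA, had implied levels of 31.7 normalised counts under DMSO, 144 under iberdomide and 183 under mezigdomide. It rose 4.54-fold under iberdomide in the authors' deposited table (log2 2.18, SE 0.18, Wald test with Benjamini-Hochberg adjusted p = 3.29e-32). Under mezigdomide it rose 5.76-fold in the authors' deposited table (log2 2.53, SE 0.18, adjusted p = 3.23e-44).

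OAS1 and OAS2 lie on either side of OAS3, 5.13 kb before and 5.15 kb after it. OAS1, a smaller synthetase of 1 catalytic unit, had implied levels of 27.9, 38.6 and 50.7 normalised counts under DMSO, iberdomide and mezigdomide. Its log2 fold change in the authors' deposited table was 0.47 (SE 0.21, adjusted p = 0.134) under iberdomide and 0.86 (SE 0.21, adjusted p = 0.000348) under mezigdomide, so that it was called under mezigdomide. OAS2 had implied levels of 26.8, 28.7 and 43.9 normalised counts in the same order. In the authors' deposited table it stood at 0.10 (SE 0.22, adjusted p = 0.883) and 0.71 (SE 0.22, adjusted p = 0.00913). The 95% interval of OAS3 under iberdomide, 1.83 to 2.53, lay wholly above those of OAS1 (0.06 to 0.88) and OAS2 (-0.34 to 0.54). Under mezigdomide the interval of OAS3 was 2.18 to 2.87, above 0.46 to 1.27 for OAS1 and 0.28 to 1.15 for OAS2. OASL, an OAS-like protein without synthetase activity that lies apart on the same chromosome, had a mean of 16.7 normalised counts and log2 fold changes of -0.25 (adjusted p = 0.607) and -0.38 (adjusted p = 0.261) per the authors' deposited table.

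Since neighbouring OAS genes differed in size of change, the 180 bases before the RefSeq start sites of OAS3 and OAS1 (GRCh38.p14) are shown, with ISRE cores (GAAA, any 2 bases, GAAA, or TTTC, any 2 bases, TTTC on the other strand) and interferon gamma activated sites (GAS, TTCNNNGAA) in capitals. The OAS3 stretch is chr12:112938294-112938473 and that of OAS1 chr12:112906782-112906961, both on the plus strand.
OAS3: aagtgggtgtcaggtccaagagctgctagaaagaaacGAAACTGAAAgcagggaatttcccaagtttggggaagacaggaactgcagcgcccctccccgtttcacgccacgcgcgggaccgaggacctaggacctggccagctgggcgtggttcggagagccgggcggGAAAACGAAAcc
OAS1: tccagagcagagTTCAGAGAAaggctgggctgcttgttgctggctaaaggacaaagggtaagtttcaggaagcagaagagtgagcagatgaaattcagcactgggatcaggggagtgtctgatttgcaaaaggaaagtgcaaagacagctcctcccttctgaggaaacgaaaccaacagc
OAS3 held 2 ISRE cores, from -143 to -134 and from -12 to -3 relative to its start site (base 0). OAS1 held a GAS from -168 to -160 and no match to these ISRE letters in the window. Near its end the OAS1 stretch reads ggaaacgaaacc, with GGAA in place of the first GAAA, a form that was not searched. The letters searched thus do not show that OAS1 lacks an ISRE. OAS2 and OASL were not matched in the sequence table. A match is a description of the letters and not evidence of binding.

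The 4 IFIT genes, whose tetratricopeptide proteins bind viral RNA and hold back its translation, had 0 of 4 members called under either drug by the authors' Wald test (1 of 4 had an unadjusted p under 0.05 under iberdomide and 0 of 4 under mezigdomide). All 4 had a mean under 100 normalised counts. Of all tested genes at that level, 7.47% were called under iberdomide and 10.4% under mezigdomide. The median log2 fold change of the 4 IFIT genes was -0.33 under iberdomide and -0.078 under mezigdomide. IFIT1 (chromosome 10, 89392546 to 89406486), which binds RNA ends that lack a host cap mark, had implied levels of 32.4, 26.1 and 35.7 normalised counts under DMSO, iberdomide and mezigdomide. In the authors' deposited table it stood at -0.32 (SE 0.22, adjusted p = 0.447) and 0.14 (SE 0.22, adjusted p = 0.755). IFIT2 had implied levels of 89.9, 69.6 and 80.1 normalised counts and log2 fold changes of -0.37 (SE 0.19, adjusted p = 0.218) and -0.17 (SE 0.19, adjusted p = 0.624) per the authors' deposited table.

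IFIT3, which stabilises IFIT1, had the highest mean of the 4, 83.0 normalised counts. The authors' deposited table gave it -0.35 (SE 0.18, adjusted p = 0.2) under iberdomide and 0.0096 (SE 0.17, adjusted p = 0.98) under mezigdomide. Its 95% interval under mezigdomide ran from -0.33 to 0.35, below that of OAS3 (2.18 to 2.87). Both intervals come from shrunken fold changes. IFIT5 was low, with a mean of 7.48 normalised counts, -0.22 (adjusted p = 0.665) and -0.24 (adjusted p = 0.548) per the authors' deposited table. The stretch before the IFIT1 start site, chr10:89392443-89392622 on the plus strand, is shown because the gene was not called although it holds a pair of ISRE cores.
IFIT1: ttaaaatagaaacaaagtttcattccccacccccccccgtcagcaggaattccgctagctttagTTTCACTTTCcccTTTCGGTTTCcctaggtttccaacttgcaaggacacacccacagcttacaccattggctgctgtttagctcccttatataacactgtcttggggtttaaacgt
The capitals mark the ISRE core as read on the other strand, from -116 to -107 and from -103 to -94. IFIT3 and IFIT5 also held the core, and IFIT2 was not matched in the table.

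**Figure D2:**
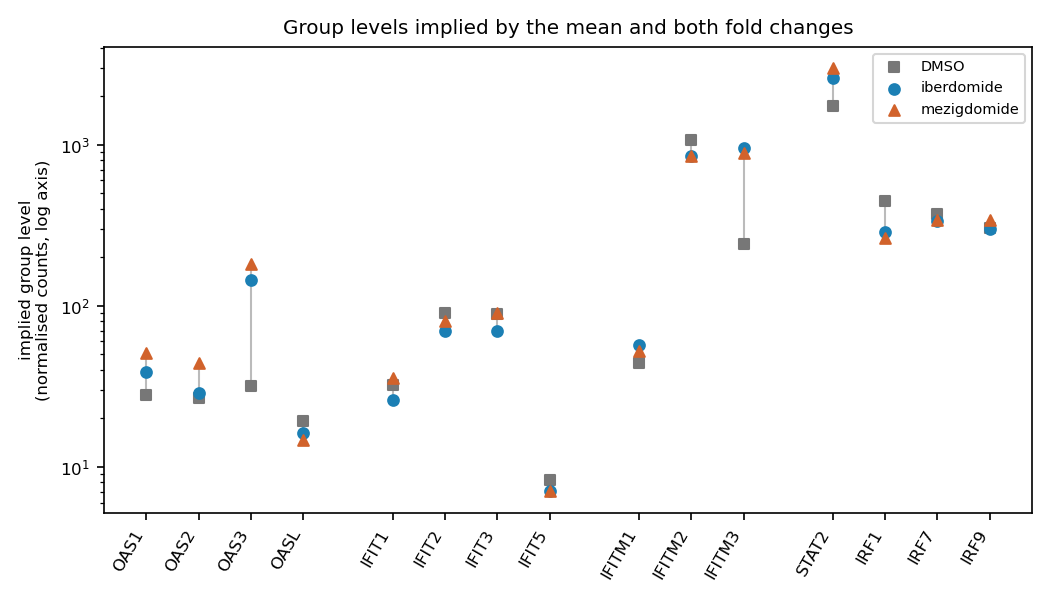
Implied level in each group, in normalised counts on a log axis, of the OAS, IFIT, IFITM and STAT/IRF members (square DMSO, circle iberdomide, triangle mezigdomide; no error can be drawn, and levels are not scaled for gene length). OAS3 and IFITM3 show the widest gaps between DMSO and drug, while the 3 marks of each IFIT gene lie close together.

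Within the IFITM family, small membrane proteins that restrict the entry of enveloped viruses, 1 gene was called higher, 1 lower and 1 not at all under each drug. IFITM3 (chromosome 11, 319669 to 327537, minus strand), which acts in endosomes, had implied levels of 241 normalised counts under DMSO, 946 under iberdomide and 880 under mezigdomide. It rose 3.92-fold under iberdomide in the authors' deposited table (log2 1.97, SE 0.11, adjusted p = 9.9e-67). It rose 3.65-fold under mezigdomide in the authors' deposited table (log2 1.87, SE 0.11, adjusted p = 4.35e-60). IFITM2, its close relative 4.4 kb away, was called lower under both drugs, with implied levels of 1068 normalised counts under DMSO, 855 under iberdomide and 844 under mezigdomide. Its log2 fold changes in the authors' deposited table were -0.32 (SE 0.11, adjusted p = 0.0207) and -0.34 (SE 0.11, adjusted p = 0.00878). With a trend of fold change on GC content and transcript length removed, the calls of IFITM2 were lost, at -0.26 (adjusted p = 0.0801) and -0.25 (adjusted p = 0.0755).

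IFITM1, the family member found at the cell surface, had a mean of 51.3 normalised counts and was called under neither drug, at 0.37 (SE 0.19, adjusted p = 0.212) and 0.26 (SE 0.19, adjusted p = 0.392) per the authors' deposited table. Scaled by the length of the annotated exons, IFITM2 led under DMSO at an implied 692 normalised counts per kb, before IFITM3 at 179 and IFITM1 at 40.9. Under iberdomide IFITM3 stood at 701 and IFITM2 at 554 per kb on the same scale, and under mezigdomide at 653 and 547. These 3 genes are related in sequence and also overlap other annotated genes, and the library kit is not stated to keep strand. On the same strand IFITM1 shares 32.5% of its exon bases with IFITM2, and IFITM2 shares 22.7% with IFITM1. Of the exon bases of IFITM3, 21.3% overlap AC136475.5 on the opposite strand. Of the 37-base words in the GENCODE transcripts of IFITM3, 48.3% also occur in transcripts of other genes, 20.1% in those of IFITM2. The share was 41.3% for IFITM2 and 34.1% for IFITM1. As the reads were 37 bases long and taken in pairs, part of the reads of one gene may have been dropped or given to another, and the values of the 3 genes are uncertain to that extent.

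The stretches before the start sites of IFITM3 (chr11:320861-321040, minus strand, written 5′ to 3′ along the gene) and IFITM1 (chr11:313860-314039, plus strand) are shown because IFITM3 was called and IFITM1 was not, while both hold ISRE cores. Capitals mark ISRE cores and GAS.
IFITM3: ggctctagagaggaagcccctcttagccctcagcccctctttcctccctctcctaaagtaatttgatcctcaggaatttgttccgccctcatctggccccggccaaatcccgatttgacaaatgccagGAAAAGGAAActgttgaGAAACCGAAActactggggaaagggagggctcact
IFITM1: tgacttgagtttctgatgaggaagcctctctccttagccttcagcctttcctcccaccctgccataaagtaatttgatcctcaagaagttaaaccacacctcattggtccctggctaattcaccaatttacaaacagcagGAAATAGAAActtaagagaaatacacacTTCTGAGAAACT
Each held 2 ISRE cores, at -52 to -43 and -35 to -26 in IFITM3 and at -40 to -31 and -6 to 3 in IFITM1, where the last runs past the end of the stretch. IFITM1 also held a GAS at -12 to -4, which overlaps its second ISRE core. IFITM2 was not matched in the table.

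Among the transcription factors of the pathway, 1 was higher, 1 lower and 2 were not called under each drug. STAT2 (chromosome 12, 56341597 to 56360155), the subunit that gives ISGF3 its activating domain, had implied levels of 1747 normalised counts under DMSO, 2584 under iberdomide and 2979 under mezigdomide. It rose 1.48-fold under iberdomide in the authors' deposited table (log2 0.56, SE 0.11, adjusted p = 6.37e-06). The rise under mezigdomide was 1.71-fold in the authors' deposited table (log2 0.77, SE 0.11, adjusted p = 7.36e-11). IRF9, the DNA-binding subunit of ISGF3, did not pass, at -0.030 (SE 0.13, adjusted p = 0.944) and 0.16 (SE 0.13, adjusted p = 0.44) per the authors' deposited table. It shares 48.4% of its exon bases with another annotated gene on the same strand, so its reads may not be separable.

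IRF1 (chromosome 5, 132481609 to 132490798), an early-acting factor induced most by interferon gamma, went the other way. Its implied level fell from 448 normalised counts under DMSO to 287 under iberdomide and 264 under mezigdomide. The authors' deposited table gave a log2 fold change of -0.64 under iberdomide (SE 0.12, adjusted p = 1.87e-06) and -0.76 under mezigdomide (SE 0.12, adjusted p = 4.66e-09). Of its exon bases 22.0% overlap a gene on the opposite strand. IRF7, the factor that amplifies interferon alpha production, stood at -0.14 (SE 0.11, adjusted p = 0.521) and -0.12 (SE 0.11, adjusted p = 0.528) per the authors' deposited table, with 95% intervals of -0.37 to 0.08 and -0.35 to 0.10. The stretch before the start site of IRF1, chr5:132490774-132490953 on the minus strand, is shown because it holds a GAS, in capitals from -124 to -116, and no ISRE core.
IRF1: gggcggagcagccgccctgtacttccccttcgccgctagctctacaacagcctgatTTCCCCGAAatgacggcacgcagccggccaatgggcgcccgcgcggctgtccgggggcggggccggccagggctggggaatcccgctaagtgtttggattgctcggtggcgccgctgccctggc

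**Figure D3:**
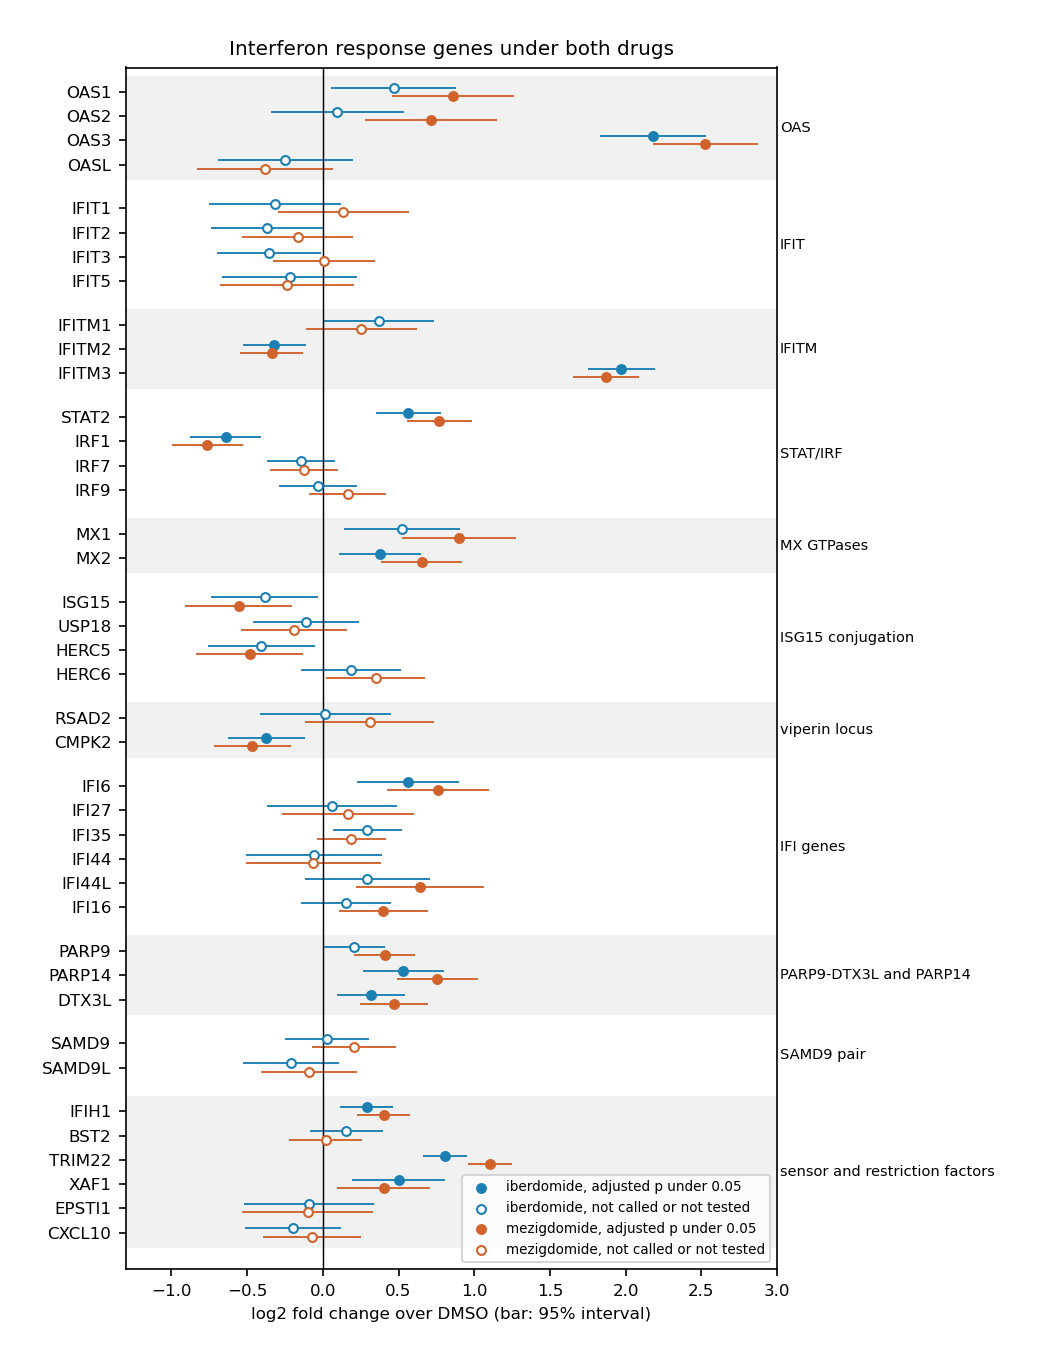
Log2 fold change over DMSO of each of the 40 members, grouped by family, under iberdomide (blue) and mezigdomide (orange). Bars are 95% intervals from the deposited SE and filled points passed an adjusted p of 0.05. All 4 IFIT genes are open under both drugs, and IFITM3 lies far to the right of IFITM2.

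The MX GTPases, which trap viral nucleocapsids, were both called higher under mezigdomide. MX1 had implied levels of 57.1, 82.2 and 106 normalised counts under DMSO, iberdomide and mezigdomide. It stood at 0.53 (SE 0.20, adjusted p = 0.0503) under iberdomide and 0.90 (SE 0.19, adjusted p = 4.45e-05) under mezigdomide in the authors' deposited table. Under iberdomide MX1 passed once fold changes were centred on their median (adjusted p = 0.0446), with protein-coding genes only (0.0368) or with a mean of at least 50 (0.0371). MX2 rose under both, by 0.38 (SE 0.14, adjusted p = 0.0443) and 0.65 (SE 0.14, adjusted p = 2.58e-05) per the authors' deposited table. The call of MX2 under iberdomide was lost with no filter on low counts (adjusted p = 0.0798) and with the GC and length trend removed (0.0708).

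Genes of ISG15 conjugation had 0 of 4 members called under iberdomide by the authors' Wald test (2 at an unadjusted p under 0.05) and 2 lower, 0 higher, under mezigdomide. Over all tested genes 14.1% were called under iberdomide, and 10.7% were lower and 10.4% higher under mezigdomide. ISG15, the ubiquitin-like tag itself, had implied levels of 252, 193 and 172 normalised counts under DMSO, iberdomide and mezigdomide. It was at -0.38 (SE 0.18, adjusted p = 0.163) and -0.56 (SE 0.18, adjusted p = 0.0132) per the authors' deposited table, and with the GC and length trend removed it was not called under mezigdomide (-0.36, adjusted p = 0.171). HERC5, the ligase that attaches ISG15 to proteins, was at -0.41 (SE 0.18, adjusted p = 0.129) and -0.48 (SE 0.18, adjusted p = 0.0362) per the authors' deposited table. Its call was lost with no filter on low counts (adjusted p = 0.0613). USP18, which removes ISG15 and blocks the receptor, and HERC6 were called under neither drug, at -0.11 and 0.18 under iberdomide and -0.19 and 0.35 under mezigdomide in the authors' deposited table. USP18 shares 28.2% of its 37-base words with other genes, most with its copy USP41.

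CMPK2 and RSAD2 lie head to head on chromosome 2. CMPK2, a nucleotide kinase of mitochondria that works beside viperin, had implied levels of 289, 223 and 210 normalised counts under DMSO, iberdomide and mezigdomide. It fell under both drugs, by 0.37 (SE 0.13, adjusted p = 0.0326) and 0.47 (SE 0.13, adjusted p = 0.0029) on the log2 scale in the authors' deposited table. With no filter on low counts its call under iberdomide was lost (adjusted p = 0.0588). RSAD2, which encodes viperin, an enzyme that makes a chain-terminating nucleotide, had a mean of 23.6 normalised counts and stood at 0.016 (adjusted p = 0.983) and 0.31 (adjusted p = 0.367) per the authors' deposited table.

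The IFI genes, named for their induction by interferon and unrelated in function, had 1 of 6 higher under iberdomide and 3 of 6 higher under mezigdomide, with 0 lower by the authors' Wald test. Over all tested genes 7.3% were higher and 6.77% lower under iberdomide, and 10.4% higher and 10.7% lower under mezigdomide. A count of 0 lower among 6 genes is not read as a difference from those shares. IFI6, a small membrane protein of mitochondria and endoplasmic reticulum, rose under both, by 0.56 (SE 0.17, adjusted p = 0.011) and 0.76 (SE 0.17, adjusted p = 0.000119) per the authors' deposited table. Its implied levels were 102, 151 and 173 normalised counts. IFI16, a nuclear DNA sensor, passed under mezigdomide at 0.40 (SE 0.15, adjusted p = 0.0397; 0.15 under iberdomide, adjusted p = 0.648) per the authors' deposited table. IFI44L did so at 0.64 (SE 0.21, adjusted p = 0.0166; 0.29 under iberdomide, adjusted p = 0.461), at a mean of 6.78 normalised counts. Both calls were lost with the GC and length trend removed (adjusted p = 0.113 for IFI16 and 0.058 for IFI44L), and that of IFI16 also with no filter on low counts (0.0673). IFI27 (mean 6.69) and IFI44 (mean 9.56) were low and not called in the authors' deposited table, and IFI35 was not called at 0.29 (adjusted p = 0.0738) and 0.19 (adjusted p = 0.283). With the trend removed IFI35 passed, at 0.37 (adjusted p = 0.0139) and 0.31 (adjusted p = 0.0438).

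PARP9, DTX3L and PARP14 encode ADP-ribosyl transferases and a ubiquitin ligase partner, of which PARP9 and DTX3L form 1 complex. All 3 were higher under mezigdomide and 2 of 3 under iberdomide. PARP14 had implied levels of 1505, 2176 and 2541 normalised counts under DMSO, iberdomide and mezigdomide, and rose by 0.53 (SE 0.14, adjusted p = 0.00126) and 0.76 (SE 0.14, adjusted p = 5.53e-07) per the authors' deposited table. DTX3L rose by 0.32 (SE 0.11, adjusted p = 0.043) and 0.47 (SE 0.11, adjusted p = 0.000433) per the authors' deposited table. The call of DTX3L under iberdomide was lost with no filter on low counts (adjusted p = 0.0775) and with the GC and length trend removed (0.137). PARP9 stood at 0.21 (SE 0.10, adjusted p = 0.201) and 0.41 (SE 0.10, adjusted p = 0.000672) per the authors' deposited table. PARP9 and DTX3L are read in opposite directions from overlapping ends, and the 60 bases before the PARP9 start site (chr3:122564301-122564360, minus strand) hold 1 ISRE core, in capitals, that the windows of both genes contain.
PARP9: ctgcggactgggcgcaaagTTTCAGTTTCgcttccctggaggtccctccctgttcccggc
The core lies from -41 to -32 of PARP9 and from -6 to 3 of DTX3L.

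Of the sensor and restriction factors, 5 were tested under iberdomide and 6 under mezigdomide, and 3 were higher under each drug and 0 lower by the authors' Wald test. The shares over all tested genes were 7.3% higher and 6.77% lower under iberdomide, and 10.4% and 10.7% under mezigdomide. With so few members, 0 lower is not read as a difference from those shares. TRIM22 (chromosome 11, 5689689 to 5737089), a ubiquitin ligase that restricts retroviruses and influenza virus, had implied levels of 1264 normalised counts under DMSO, 2213 under iberdomide and 2717 under mezigdomide. It rose 1.75-fold under iberdomide (log2 0.81, SE 0.074, adjusted p = 2.12e-25) and 2.15-fold under mezigdomide (log2 1.10, SE 0.074, adjusted p = 4.16e-48) per the authors' deposited table. TRIM22 shares 10.7% of its exon bases with OR56B1 on the same strand, and 15.8% of its 37-base words occur in other genes. IFIH1, the cytosolic RNA sensor MDA5, rose by 0.29 (SE 0.090, adjusted p = 0.013) and 0.40 (SE 0.089, adjusted p = 8.71e-05) per the authors' deposited table. XAF1, a pro-apoptotic zinc finger protein, rose by 0.50 (SE 0.16, adjusted p = 0.0135) and 0.40 (SE 0.16, adjusted p = 0.0498) per the authors' deposited table. The call of XAF1 under mezigdomide was lost with no filter on low counts (adjusted p = 0.0843) and with the trend removed (0.116), and 38.3% of its exon bases overlap a gene on the opposite strand.

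BST2, or tetherin, which holds budding virus at the cell surface, had the highest mean of the members and was called under neither drug, at 0.15 (adjusted p = 0.53) and 0.019 (adjusted p = 0.95) per the authors' deposited table. SAMD9 and SAMD9L, neighbouring growth restrictors on chromosome 7, were not called either, at 0.029 and -0.21 under iberdomide and 0.21 and -0.092 under mezigdomide in the authors' deposited table. EPSTI1 (mean 6.22 normalised counts) was not called. CXCL10, a chemokine that draws T cells, had a mean of 2.09 normalised counts, below the filter under iberdomide, and stood at -0.073 (adjusted p = 0.835) under mezigdomide in the authors' deposited table.

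The drugs were compared at unlike doses, 1 µM and 50 nM, so the difference is one between treatments and not between the molecules at a matched dose. The difference of the log2 fold changes, mezigdomide minus iberdomide, was tested with errors taken as independent, which overstates the error because the DMSO libraries are shared. By this test, two-sided against the normal distribution and adjusted by Benjamini-Hochberg over all genes, 0 of 39 members differed (1 at an unadjusted p under 0.05), beside 0.108% of 19497 genes in either direction, 0.0462% higher and 0.0615% lower. The widest member difference was in OAS2, at 0.62 with a 95% interval of -0.003 to 1.24. That of IFITM3 was -0.10 (-0.41 to 0.21), that of OAS3 0.34 (-0.15 to 0.84) and that of IRF1 -0.12 (-0.45 to 0.21). With an error correlation of 0.5 for the shared libraries TRIM22 passed, at a difference of 0.30 (adjusted p = 0.0159). The 8 members called under mezigdomide and not under iberdomide (OAS1, OAS2, MX1, IFI44L, IFI16, PARP9, ISG15 and HERC5) were therefore not shown to differ between the treatments, and the intervals do not show that they act alike.

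**Figure D4:**
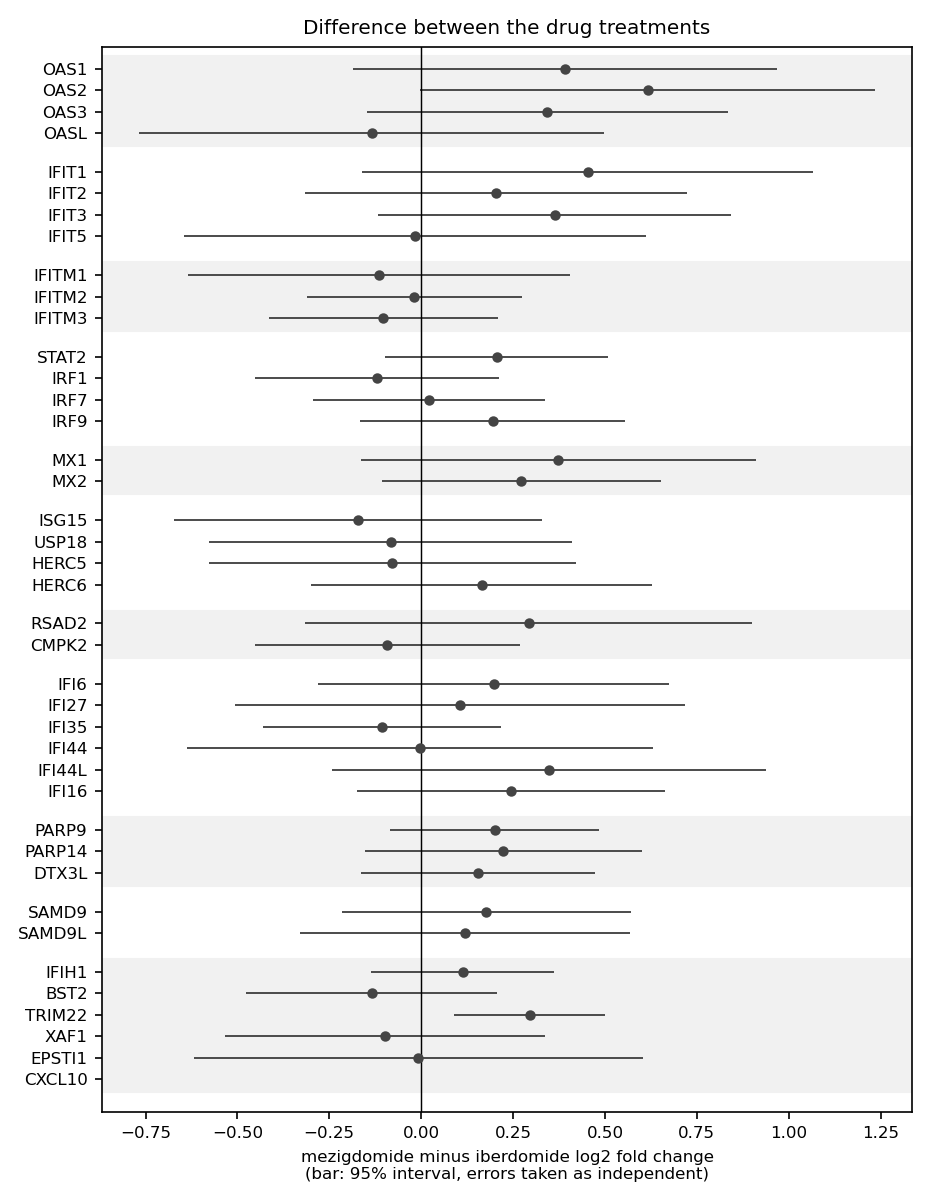
Difference between the log2 fold changes of both treatments for the 39 members tested under both drugs (CXCL10 has none). Points are mezigdomide minus iberdomide and bars are 95% intervals with errors taken as independent. The interval of TRIM22, 0.090 to 0.50, lies above 0, and the others reach it.

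Of the 96 other pathway genes with a row, 78 were tested under iberdomide, of which 15 were higher and 11 lower, and 79 under mezigdomide, of which 25 were higher and 15 lower in the authors' deposited table. Beside these counts and those of the lists that follow, 7.3% of all tested genes were higher and 6.77% lower under iberdomide, and 10.4% were higher and 10.7% lower under mezigdomide. Many of the tested pathway genes had a mean of at least 100. At that level 19.3% of all genes were called in either direction under iberdomide and 30.9% under mezigdomide, beside 14.1% and 21.2% at any level. The lists were chosen with earlier results of these data known. The 12 interferon genes of the ligand list were at or near 0. IFNA1 and IFNA2 were listed at a mean of 0 in the authors' deposited table, and IFNB1, the interferon beta gene, had the highest mean at 0.336 normalised counts in the authors' deposited table. None of the 12 was tested in either comparison. The receptor chains IFNAR1 (-0.00036 and 0.04 on the log2 scale) and IFNAR2 (0.06 and 0.18) and the kinase TYK2 (0.10 and 0.080) were called under neither drug in the authors' deposited table.

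Of the 9 receptor and kinase genes 3 were higher under iberdomide and 4 under mezigdomide, with 0 lower by the authors' Wald test. JAK2, a kinase of the interferon gamma receptor, rose by 0.43 and 0.70, and STAT3 by 0.20 and 0.30, in the authors' deposited table. JAK1 was called under mezigdomide at 0.32 (adjusted p = 0.0106; 0.16 under iberdomide, adjusted p = 0.375) per the authors' deposited table. Among 7 negative regulators 1 was higher and 3 lower under iberdomide and 3 higher and 2 lower under mezigdomide by the Wald test of the authors' deposited table. SOCS1, an inhibitor of JAK kinases, fell by 1.04 (SE 0.13, adjusted p = 3.17e-14) and 0.89 (SE 0.13, adjusted p = 1.28e-10) on the log2 scale in the authors' deposited table. Its relative CISH fell by 0.33 and 0.41 in the authors' deposited table, while SOCS3 rose by 0.59 and 0.61.

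Sensors and adaptors had 2 of 14 higher and 2 lower under iberdomide, and 4 of 15 higher and 3 lower under mezigdomide by the Wald test of the authors' deposited table. DDX58, the RNA sensor RIG-I, fell by 0.60 (SE 0.12, adjusted p = 3.16e-05) and 0.43 (SE 0.12, adjusted p = 0.00385) per the authors' deposited table, where its relative IFIH1 rose. TLR7, an endosomal sensor of single-stranded RNA, rose by 1.18 and 1.41 at a mean of 37.3 normalised counts, and MAVS, the adaptor of RIG-I and MDA5, rose by 0.30 and 0.42 in the authors' deposited table. The kinase IKBKE fell by 0.27 and 0.46 in the authors' deposited table. Of the other IRF genes, IRF8, a factor of monocyte and dendritic cell fate, rose by 0.53 (SE 0.049, adjusted p = 1.09e-25) and 0.58 (SE 0.049, adjusted p = 3.28e-31) per the authors' deposited table. IRF5 rose by 0.50 and 0.56, and IRF3 was called lower under mezigdomide at -0.27 (adjusted p = 0.0135; -0.13 under iberdomide, adjusted p = 0.45) per the authors' deposited table.

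Interferon-stimulated genes outside the 40 were split as well, with 7 of 43 higher and 6 lower under iberdomide and 12 higher and 9 lower under mezigdomide by the Wald test of the authors' deposited table. LGALS3BP, a secreted glycoprotein that binds galectins, rose most, by 2.68 (SE 0.18, adjusted p = 3.9e-49) and 3.09 (SE 0.18, adjusted p = 4.41e-67) per the authors' deposited table. DDX60L (0.72 and 0.96), SLFN5 (0.61 and 1.14), the phospholipid scramblase PLSCR1 (0.54 and 0.66), the RNA-activated kinase EIF2AK2 (0.45 and 0.56) and the ISG15-activating enzyme UBA7 (0.44 and 0.51) also rose in the authors' deposited table. GBP2, a guanylate-binding protein most responsive to interferon gamma, fell by 1.03 and 1.17, the helicase HELZ2 by 0.99 and 0.94, GBP3 by 0.38 and 0.45, APOL6 by 0.35 and 0.45 and TRIM5 by 0.39 and 0.40 in the authors' deposited table. Across the whole pathway list the median log2 fold change was 0.051 under iberdomide and 0.080 under mezigdomide.

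Promoter windows from 250 bases before to 50 bases after the RefSeq start site (GRCh38.p14) were found for 32 of the 40 members. The ISRE core, read on both strands, occurred in 22 of these 32 (68.8%) and in 4.38% of all 27305 gene symbols with a window. The GAS letters TTCNNNGAA, which read the same on both strands, occurred in 10 of 32 (31.2%) and in 9.38% of all symbols. Of the 22 members with an ISRE core, 6 were higher and 0 lower under iberdomide, and 9 were higher and 2 lower under mezigdomide. Of the 10 members without it, 2 were higher and 2 lower under iberdomide, and 4 were higher and 2 lower under mezigdomide. Of all tested genes, 7.3% were higher and 6.77% lower under iberdomide, and 10.4% were higher and 10.7% lower under mezigdomide. Whether calls differ with the motif was not tested. By the letters searched, STAT2, CMPK2, HERC6, IFI16, SAMD9L and XAF1 held neither motif in the window. A form with GGAA in place of the first GAAA of the core was not searched. On one strand or the other it occurs before start sites of OAS1, CMPK2 and IFI35, which are counted as without the core. The split by ISRE core therefore holds for these letters alone.

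**Figure D5:**
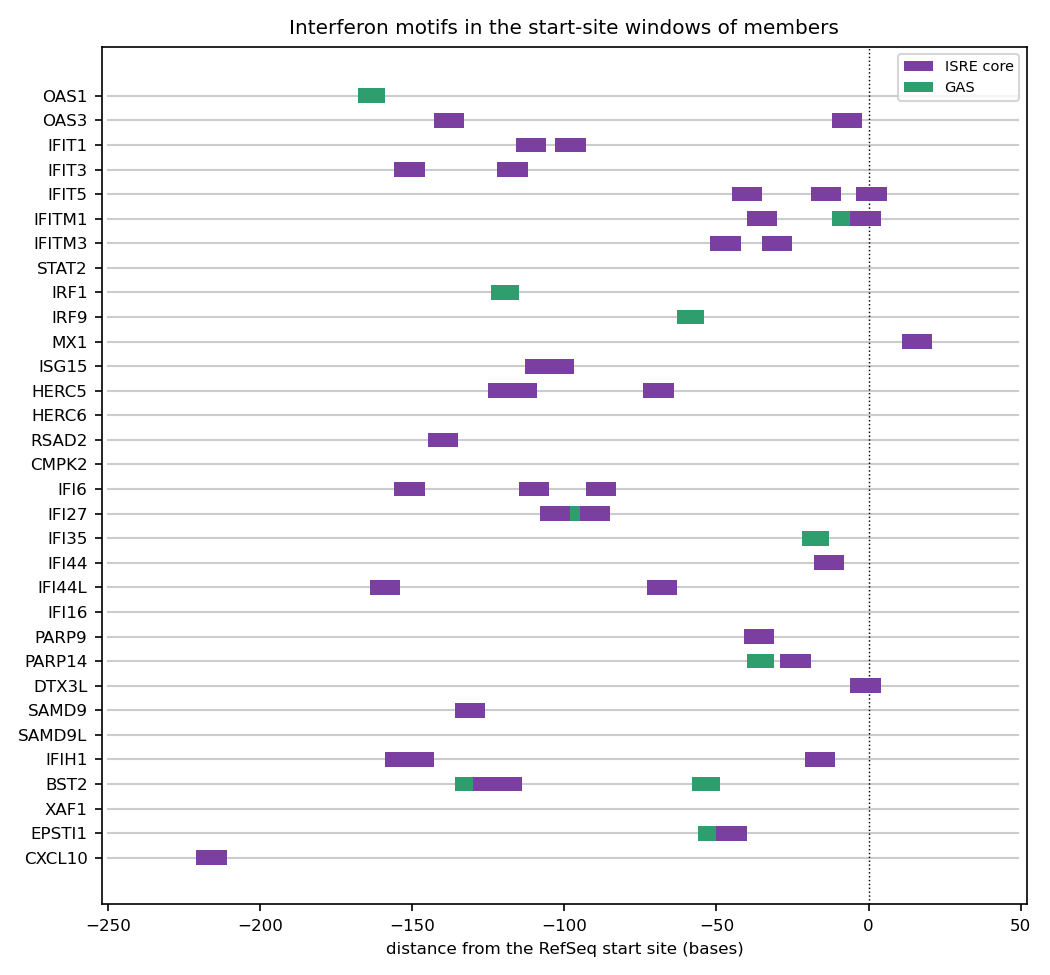
Positions of ISRE cores (purple) and GAS (green) in the window of each of the 32 members with a RefSeq start site, as the distance from that site in bases; where a gene has several windows, the one with most ISRE cores is drawn. The 2 cores of OAS3 and of IFITM3 lie before the start site, and IFIT1, IFIT3 and IFIT5, which were not called, hold at least 2 each.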

How the data were processed

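Per the submitters' processing notes, the tools were STAR 2.7.5a, HTSeq 0.6.1pl, DESeq2, Picard 2.9.4, bcl2fastq 2.20.0.422 and SAMtools, and the build GRCh38, with no role or order named. How reads were counted is not given in the sources used here. Per the file headers, each of the 2 deposited tables holds for 59699 rows a mean signal (counts divided by size factors), a log2 fold change, its standard error and Wald statistic (deposited scores), and a deposited p-value, raw and adjusted. Adjustment over the genes with a mean over 2.87 (iberdomide comparison) or 2.01 (mezigdomide comparison) gave back the adjusted p within 2e-15. The tables hold no counts per library and no count test was run. The authors' Wald test is the test of each drug against DMSO. The 44 second copies on chromosome Y and 92 rows that name no gene (3.39e-05% of normalised counts) were left out. Depth was taken from genes with 1 read in 1 library, whose deposited log2 fold changes were at most 0.0129 in size, which shows the shrinkage. The implied DMSO level is 3 times the mean divided by 1 plus both fold changes. The 95% intervals are normal intervals from the SE. The test of the difference was tested on simulated data. Exon length, overlap and 37-base words come from GENCODE 29, matched by gene identifier or symbol. Members and lists were chosen with earlier results of these data known. All 40 members are named, those of the OAS, IFIT, IFITM and STAT/IRF families and those called under a drug with their values. Of the pathway list, 96 of 100 names had a row (the other 4 are second names of listed genes), and examples were picked after their values were seen. Python 3.11.15, NumPy 2.4.6, SciPy 1.17.1 and pandas 2.3.3 were used. Some genes of the marker and pathway lists are counted but their values are not reported here.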

Additional observations from a re-analysis of the deposited data

How the results depend on the processing

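No paired analysis was possible because the tables hold no value per library, although the groups share replicate numbers. For the same reason leaving out each replicate, other count tests and normalizations were not run. With an adjusted p under 0.01, 6 members were called under iberdomide in place of 13 (5 higher in place of 10, 1 lower in place of 3), and 3 were lower under mezigdomide in place of 5. With the GC and length trend removed, 3 were lower under mezigdomide. With an error correlation of 0.5, 1 member, TRIM22, differed between the treatments, higher under mezigdomide, and 118 genes of the whole table did in place of 21. Removal of the GC and length trend turned the sign of 8 values, each uncalled before and after: IRF7 (0.0082) and IRF9 (0.013), RSAD2 (-0.016) and SAMD9 (-0.036) under iberdomide, IFIT3 (-0.016) and IRF7 (0.11) under mezigdomide, and the differences of IFITM2 (0.019) and IFI44 (1.2e-05). The cause was not tested. The number of members called was 10 to 14 under iberdomide and 17 to 21 under mezigdomide over the settings other than the stricter threshold. The calls of OAS3, IFITM3, STAT2, IRF1, PARP14 and TRIM22 held under every setting run, for both drugs. Of the 6 members with a mean under 10 normalised counts, IFI44L was called, under mezigdomide; whether depth limits the other calls was not tested.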

Other observations

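With a gap of at most 100 kb between annotated ends, 22 of the 40 members lie in 9 loci that hold at least 2 of them, and several loci hold members with unlike values. In the HERC pair on chromosome 4, 14 kb apart, HERC5 was called lower under mezigdomide (-0.48) and HERC6 was not called (0.35) in the authors' deposited table, and their 95% intervals, -0.84 to -0.13 and 0.02 to 0.68, did not overlap. CMPK2 and RSAD2, which overlap head to head on chromosome 2, had intervals of -0.72 to -0.21 and -0.12 to 0.74 under mezigdomide, which did not overlap either. Under iberdomide the intervals overlapped in both pairs. They were -0.76 to -0.05 for HERC5 and -0.15 to 0.51 for HERC6. Those of CMPK2 and RSAD2 were -0.63 to -0.12 and -0.42 to 0.45. In the MX pair on chromosome 21, 10.9 kb apart, both genes were called higher under mezigdomide, and the PARP9 and DTX3L pair on chromosome 3 did likewise. The SAMD9 pair, 12 kb apart, and the 4 IFIT genes on chromosome 10 had 0 called members by the authors' Wald test under either drug (unadjusted p under 0.05 in 0 and 1 of them under iberdomide and 0 of both under mezigdomide). Of all genes with a mean under 100, as the IFIT genes had, 7.47% were called under iberdomide and 10.4% under mezigdomide. At a mean of at least 100, as the SAMD9 pair had, 19.3% and 30.9% were called. The loci named here were picked after their values were seen, and differences between members of a locus were not tested.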
